A study of Danio rerio with 121 samples.

Results

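The change from the 15-somite stage (15 ss) to the 20-somite stage (20 ss) was examined in whole zebrafish embryos of the wild-type RIKEN WT (RW) strain. The libraries were chosen by their sample titles, as the 8 libraries of 20 ss and the 4 libraries of 15 ss that carry no further letter in their names, 12 of the 81 libraries of set 1, beside which the series holds 40 zebrafish libraries of a set 2. They are called plain, because 5 further libraries of 15 ss have an S in their titles, the meaning of which the labels do not give. All embryos were of the same strain and were untreated, and the groups differ in stage only as far as the labels say. RNA was sequenced by Lasy-Seq, which reads the 3′ end of transcripts after each RNA sample has been marked with an index at reverse transcription. A deposited sample table gives a used number of 50 for the 15 ss libraries and 10 for the 20 ss libraries and the year 2020 for both, and it does not say what the used number counts. According to the labels each RNA came from a single embryo, whereas the study's methods describe pools. How many embryos a library represents was not settled, and p-values measure the spread between libraries, which may be technical. The used number and the stage cannot be told apart in these 12 libraries.

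Somites are blocks of mesoderm that form in pairs, head to tail, from the presomitic mesoderm of the tailbud, and they give rise to skeletal muscle. Tailbud cells are held unspecified by Wnt, FGF, and T-box factors, an oscillating clock of Notch targets sets the rhythm of the boundaries, and cells that leave the tailbud switch on myogenic factors and then the sarcomere. In the same hours the blood islands make embryonic hemoglobin, the heart tube begins to assemble, the first neurons extend axons, and the notochord builds its sheath.

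The 4 libraries of 15 ss held 2701783 to 5336861 counts and 15964 to 17190 genes with a count, and the 8 libraries of 20 ss held 1930237 to 3161085 counts and 15238 to 16208 genes. Of 27 marker genes chosen for the main tissues of the embryo, 26 were in the table and 22 had a count in all 12 libraries. The cardiac light chain *myl7* and the lens crystallin *cryaa* were at 0 in 1 of the 15 ss libraries each, and *nkx2.5*, *cryaa*, and *ddx4* were at 0 in some of the 20 ss libraries. Fewer cells of a type and less RNA per cell cannot be told apart in whole embryos. Libraries 1, 7, and 8 of 20 ss stood apart from the other 5 on principal component 3, and libraries 1 and 8 also on component 2.

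The plain libraries of 15 ss stood apart from the S libraries of the same labelled stage. To place each library, genes that changed at least 4-fold between the plain libraries of 6 ss and 24 hours postfertilization (hpf) were taken, 1094 higher and 264 lower at 24 hpf, and the median position of a library between these ends was computed over either set. This measure was chosen after the data had been seen. None of the libraries it was read in at 15 ss or 20 ss had entered the test that chose the genes. They did enter a filter for expressed genes over all 49 libraries, which the chosen genes also had to pass. On the rising genes the 4 plain libraries of 15 ss lay at 19.6% to 22.1% of the way, beside the S libraries of 10 ss at 18.0% to 20.2%. The 5 S libraries of 15 ss lay at 37.7% to 44.1% and the 8 libraries of 20 ss at 52.7% to 55.3%. On the falling genes the plain libraries of 15 ss were at 21.7% to 27.4%, those of 10 ss at 23.6% to 27.4%, the S libraries of 15 ss at 43.9% to 51.0%, and those of 20 ss at 59.3% to 69.1%. The plain libraries of 15 ss therefore did not overlap the S libraries of 15 ss on either set and overlapped those of 10 ss on both. S libraries of 6 ss lay at 2.31% to 9.59% on the rising genes, above the plain libraries of 6 ss at -2.88% to 0%. On the falling genes they lay at 7.68% to 11.5%, and the plain libraries of 6 ss at -1.81% to 2.74%. The plain libraries of 6 ss entered the choice of genes and define 0, so their own position is fixed near 0. The gap at 6 ss therefore does not give the size of a difference between S and plain libraries, and its cause was not tested. Between S and plain libraries of 15 ss, 508 genes were higher and 393 lower in the S libraries (7.97% of 11302 tested, edgeR quasi-likelihood test, Benjamini-Hochberg adjusted p under 0.05). The S libraries have used numbers of their own, 25 at 6 ss, 20 at 10 ss, and 15 at 15 ss. The plain libraries of 6 ss and 24 hpf have 50, as those of 15 ss do. The part of library kind, used number, and embryo age in the difference at 15 ss was not tested. The gene groups below are therefore given against the plain libraries of 15 ss and also against the S libraries, and all such pairs share the 8 libraries of 20 ss.

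**Figure D1:**
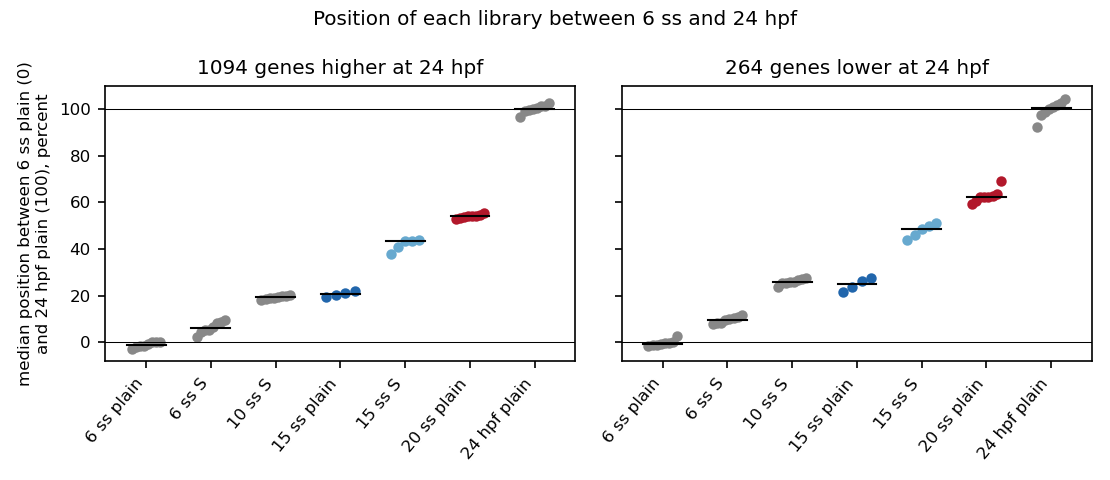
Median position of each library (point) between the plain libraries of 6 ss (0) and of 24 hpf (100), in percent, over the rising genes (left) and the falling genes (right), with the group median as a line. The 4 plain libraries of 15 ss lie at 19.6% to 22.1% on the rising genes and the 5 S libraries of 15 ss at 37.7% to 44.1%, below the 8 libraries of 20 ss at 52.7% to 55.3%.

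Counts were normalized by the TMM method of edgeR and are given as CPM, counts scaled to a common library size, and log2 fold changes are positive where the level was higher at 20 ss. "Rose" and "fell" are used for genes with an adjusted p under 0.05 in the edgeR quasi-likelihood test between the plain libraries. Of 11649 genes tested, 1270 rose (10.9%) and 1020 fell (8.76%). These shares are the background for the list counts between the plain libraries below. At least 2-fold changes were called for 523 genes upward (4.49%) and 194 downward (1.67%). With library totals in place of TMM, 1060 genes rose and 1359 fell, so that the share of calls that were upward was 43.8% and not 55.5%. The median log2 fold change over all genes tested was 0.01, and library totals moved it by -0.06. Against the 5 S libraries of 15 ss, 255 of 10982 genes were higher at 20 ss (2.32%) and 188 lower (1.71%). These shares are the background for all list counts against the S libraries below. In a short list, no call lies near them.

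**Figure D2:**
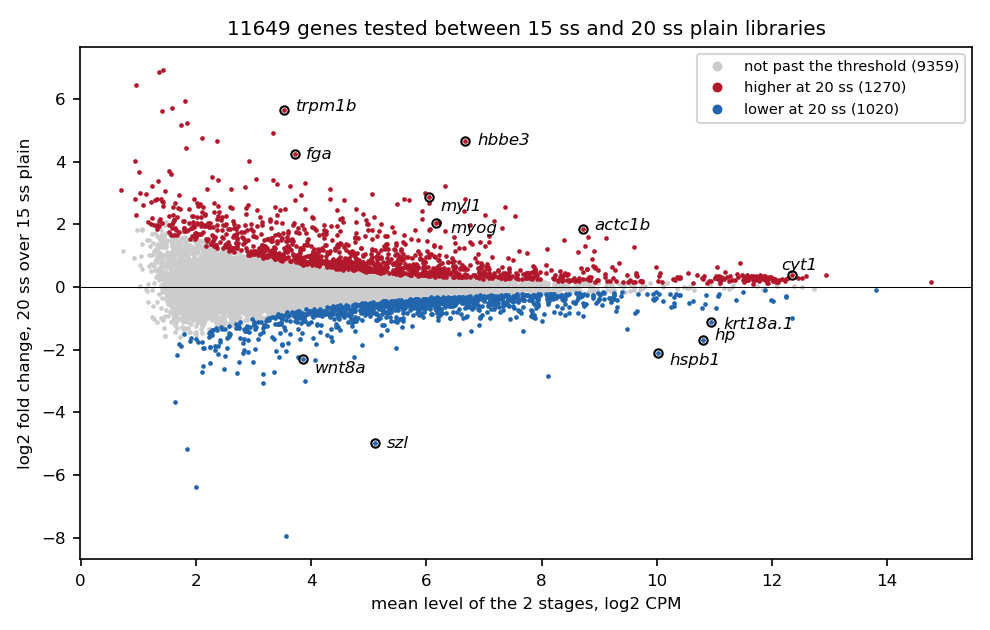
Log2 fold change (20 ss over the plain libraries of 15 ss) against the mean level of both stages in log2 CPM for each of the 11649 genes tested, with the 1270 genes that rose in red and the 1020 that fell in blue. Named genes are circled, among them *hbbe3* at a log2 fold change of 4.67 and *szl* at -4.99.

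**Figure D3:**
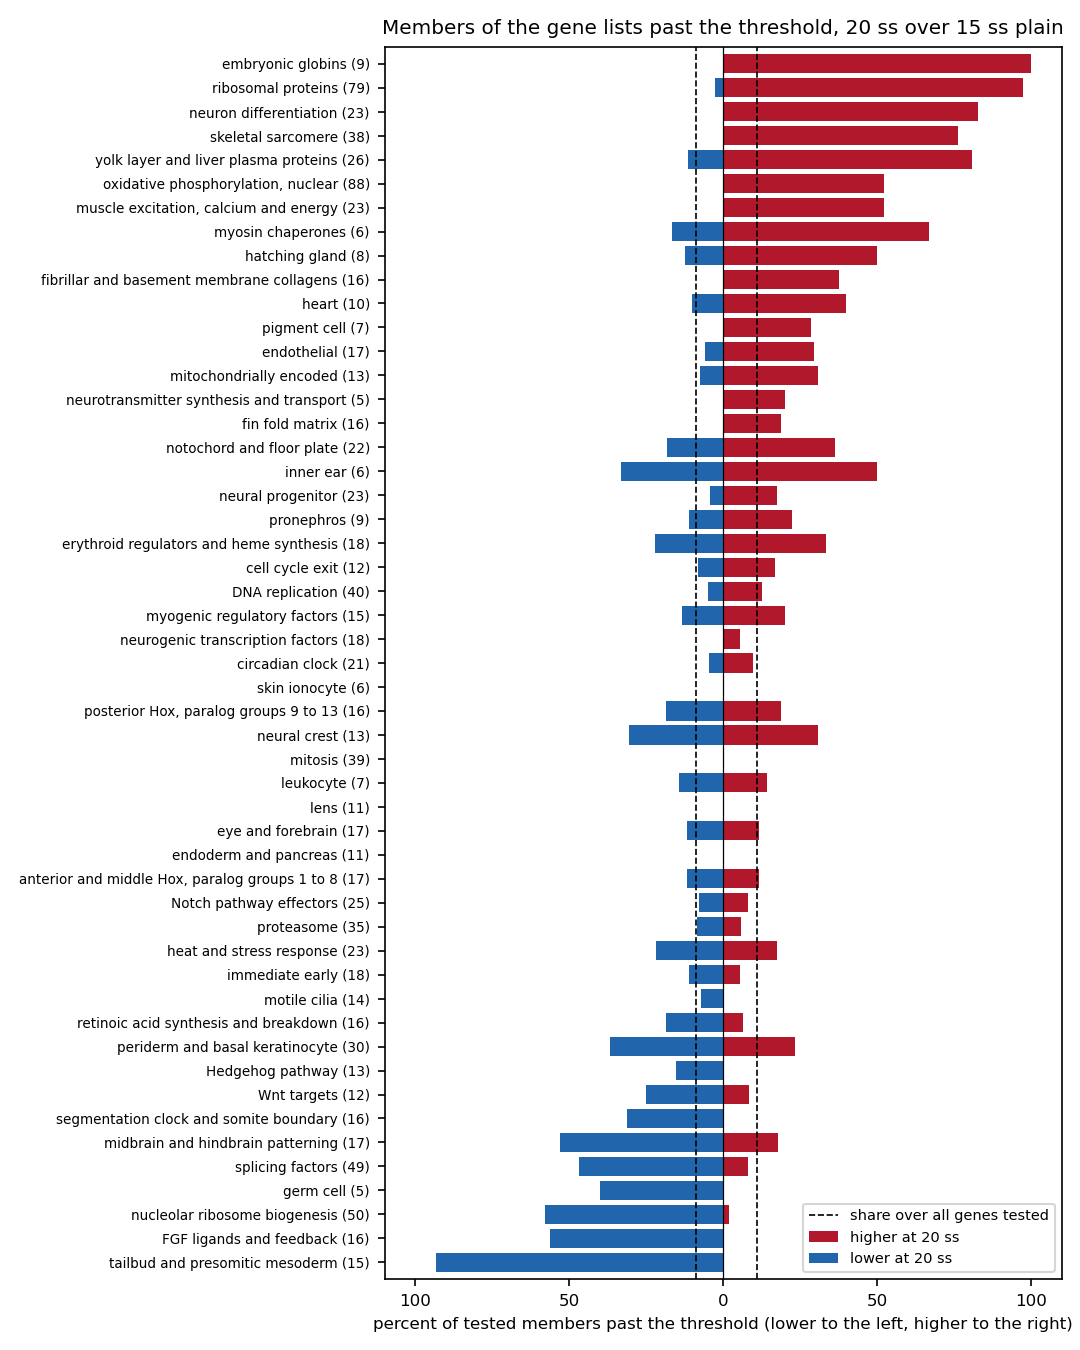
Percent of the tested members of each gene list that were higher at 20 ss (red, to the right) or lower (blue, to the left), with the number tested in parentheses and the share over all genes tested as dashed lines (10.9% higher, 8.76% lower). All 9 tested embryonic globins lie on the right and 14 of 15 tailbud genes on the left.

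The embryonic globins, the chains of the hemoglobin of the first red cells, had the highest median of the gene lists. All 9 tested rose, with a median log2 fold change of 3.01. Their summed level was 89.3 to 129 CPM in the 15 ss libraries and 810.0 to 1094 CPM in the 20 ss libraries (median 933). *hbbe3* was at 8.99, 8.50, 7.78, and 6.26 CPM in the 4 libraries of 15 ss and at 165 to 240 CPM at 20 ss (median 192). That was a 25.4-fold rise (log2 fold change 4.67, SE 0.15, adjusted p = 9.65e-33). *hbbe3* was among the 12 largest rises, which were chosen from genes without overlap, so its lack of overlap is no separate result. *hbae3* went from 17.7 ± 3.18 (SD, n = 4) to 115 ± 14.5 CPM (n = 8), and *hbae1.1*, *hbae1.3*, *hbbe1.1*, and *hbbe1.2* rose 8.03-fold, 9.41-fold, 7.06-fold, and 7.02-fold. The globins with a shared number are near-identical copies, and reads may have been split between them. *hbae5*, named after its values had been seen, had 0 counts in the 4 libraries of 15 ss and 74 counts over the 8 of 20 ss, which puts it at least 18.8-fold higher with the floor at 3 counts over the group, and the list median is the same with this gene at that bound. *hbae5* entered the test only through its 20 ss counts, so only a rise could be called for it. Over the S libraries of 15 ss, all 8 globins tested were also higher at 20 ss, with a median log2 fold change of 1.42, and the level of *hbbe3* ran from 41.1 to 70.0 CPM in the S libraries, above the plain libraries of 15 ss and below those of 20 ss.

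Among 18 erythroid regulators and heme synthesis genes, 6 rose and 4 fell, 33.3% and 22.2% beside 10.9% and 8.76% over all genes. The 6 that rose are enzymes of heme synthesis or breakdown, *alas2*, *alad*, *hmbsb*, *urod*, *cpox*, and *blvrb*. *alas2*, which starts heme synthesis in red cells, was at 3.66, 1.82, 2.83, and 1.84 CPM at 15 ss and at 6.42 to 13.3 CPM at 20 ss (median 9.90), a 4.01-fold rise (SE 0.42 on the log2 scale, adjusted p = 0.000221). *cpox*, a later enzyme of the pathway, went from 14.6 ± 0.826 to 51.7 ± 15.13 CPM and *alad* from 13.7 ± 4.65 to 34.1 ± 5.30 CPM. The 4 that fell were *gata2a* and *lmo2*, transcription regulators of blood and vessel precursors, *cahz*, the carbonic anhydrase of red cells, and *klf17*. *gata2a* was at 51.6, 70.7, 47.0, and 59.8 CPM and fell to 18.6 to 26.1 CPM (median 21.8), 2.6-fold lower. *cahz* was 2.16-fold and *lmo2* 1.54-fold lower. The erythroid master regulator *gata1a* was tested and did not pass the threshold. In the comparison with the S libraries only *cpox* of the 18 passed, and *gata2a* was already at 25.7 ± 5.17 CPM there. Of 7 tested leukocyte genes, *lcp1*, the leukocyte plastin, fell from 24.7 ± 5.24 to 8.09 ± 3.48 CPM, and *mpx*, the neutrophil peroxidase, rose. That was 14.3% each way, beside 10.9% higher and 8.76% lower over all genes. *mpx* had 1 count over the 4 libraries of 15 ss, in library 4, and 108 over the 8 of 20 ss, a ratio of 81.1 with a 95% counting interval of 14.2 to 3232. It entered the test only through its 20 ss counts, so only a rise could be called for it. None of 6 leukocyte genes passed the edgeR test with the S libraries, and 2 had an unadjusted p under 0.05. Over all genes 2.32% were higher and 1.71% lower there.

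Muscle genes rose. Of 38 tested genes of the skeletal sarcomere, 29 rose and the median log2 fold change was 1.34. Their summed level ran from 1727 to 1872 CPM at 15 ss and from 4824 to 5421 CPM at 20 ss, without overlap. *myl1*, a light chain of fast myosin, was at 14.3, 11.5, 15.9, and 20.1 CPM at 15 ss and at 101 to 140 CPM at 20 ss (median 113), a 7.38-fold rise (log2 fold change 2.88, SE 0.15, adjusted p = 2.42e-23). The light chain *myl13* rose 5.86-fold, from 47.7 ± 5.42 to 282 ± 17.9 CPM, and the fast troponin I *tnni2b.1* rose 4.84-fold, from 63.3 ± 8.63 to 309 ± 30.8 CPM. The sarcomeric actins were abundant at both stages and rose less, *actc1b* 3.65-fold to 659 ± 38.6 CPM, *acta1a* 3.00-fold to 671 ± 39.8 CPM, and *actc1a* 2.43-fold to 1098 ± 44.5 CPM. The actins are close copies, and reads may have been split between them.

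Of 23 tested genes for muscle excitation, calcium, and energy, 12 rose. The calcium pump of the sarcoplasmic reticulum *atp2a1* was at 33.6, 44.3, 52.7, and 43.6 CPM at 15 ss and at 181 to 255 CPM at 20 ss (median 213), a 4.92-fold rise. The muscle aldolase *aldoab* rose 5.33-fold and *cav3*, the caveolin of the muscle membrane, 6.92-fold. Both were higher in each of the 8 libraries of 20 ss than in any of the 4 of 15 ss. *jam2a*, a cell adhesion molecule that zebrafish myoblasts need to fuse, went from 7.58 ± 1.64 to 58.7 ± 11.1 CPM, and was one of the genes chosen for the size of its rise. Of 6 tested chaperones that fold myosin, *hsp90aa1.1*, *hsp90aa1.2*, *unc45b*, and *smyd1b* rose. *hsp90aa1.1*, the muscle form of the chaperone, went from 165 ± 7.93 to 381 ± 26.0 CPM and the methyltransferase *smyd1b* from 22.1 ± 2.81 to 56.9 ± 8.48 CPM. Its paralog *smyd1a* was at 31.9 ± 11.8 and 20.9 ± 5.68 CPM with overlapping libraries, a fall (adjusted p = 0.0474) that was lost without any 1 of libraries 1, 3, and 4 of 15 ss and 1, 2, 6, 7, and 8 of 20 ss, with adjusted p from 0.0515 to 0.323. With the S libraries for 15 ss, 3 of the 6 chaperones were higher at 20 ss.

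Of 15 tested myogenic factors 3 rose and 2 fell, 20.0% and 13.3% beside 10.9% and 8.76% over all genes. *myog*, which drives myoblasts into differentiation, was at 19.0, 29.1, 35.3, and 27.8 CPM at 15 ss and at 96.9 to 136 CPM at 20 ss (median 116), a 4.16-fold rise (adjusted p = 2.88e-18). *myf5*, the earliest factor of the family in the paraxial mesoderm, was at 102, 101, 94.7, and 99.8 CPM and fell to 34.5 to 61.1 CPM (median 49.6), 2.06-fold lower. Neither gene had overlapping groups. *mef2ca*, a transcription factor for sarcomere genes, went from 14.4 ± 5.33 to 41.8 ± 4.00 CPM and *mef2d* also rose, while *meox1*, a homeobox gene of somites, fell from 186 ± 17.3 to 135 ± 15 CPM. *myod1* did not pass the threshold. When the S libraries stood for 15 ss, 19 of 37 sarcomere genes and 9 of 22 excitation, calcium, and energy genes were higher at 20 ss, with medians of 0.50 and 0.53. There *myl1* had a log2 fold change of 1.3 (adjusted p = 1.11e-11), *myog* had 0.51 (adjusted p = 0.00105), and *myf5* had -0.34 and did not pass (adjusted p = 0.190). Over the neighbouring libraries, *myog* stood at 21.8 ± 6.36 CPM in the S libraries of 10 ss (n = 8), 79.0 ± 11.7 CPM in those of 15 ss (n = 5), and 88.3 ± 11.1 CPM at 24 hpf (n = 8), and *myl1* at 13.8 ± 4.36, 45.6 ± 11.0, and 1405 ± 150 CPM in the same groups.

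**Figure D4:**
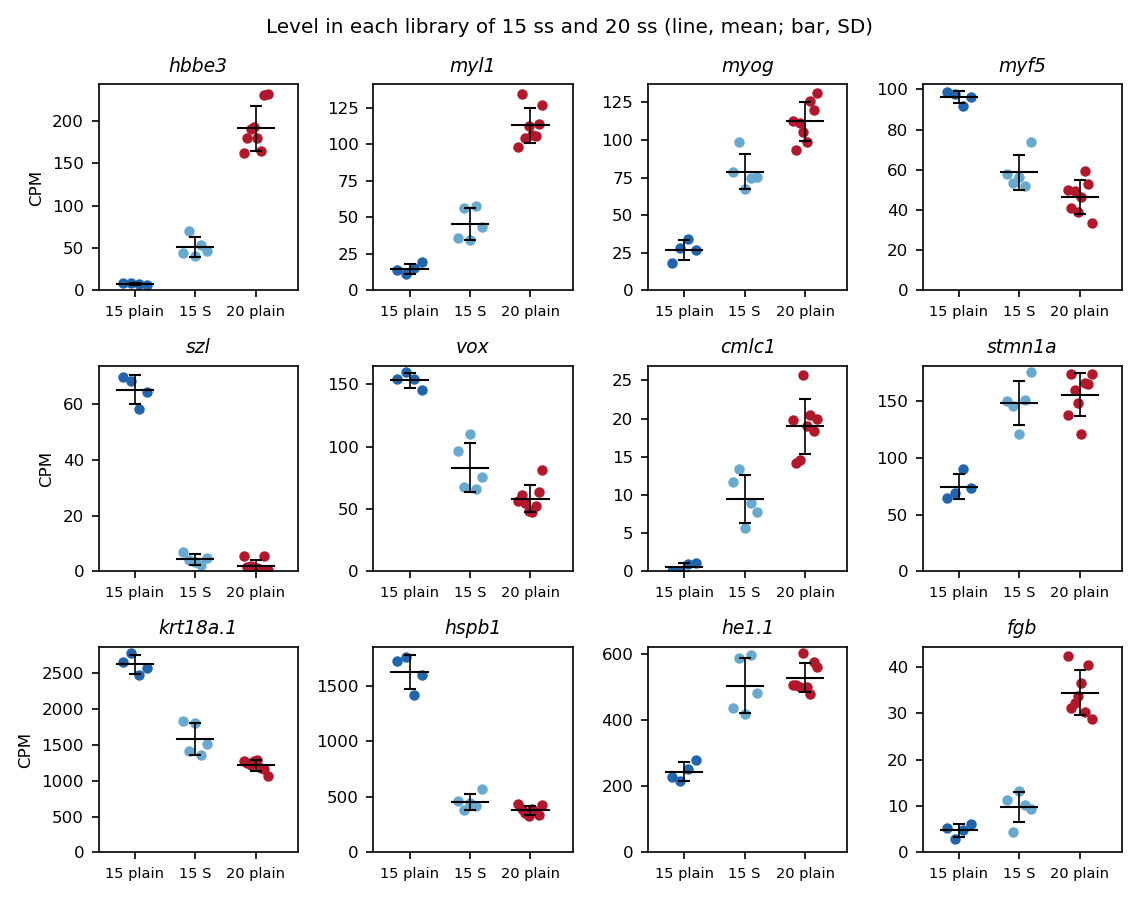
Level in CPM of 12 genes in each plain library of 15 ss, each S library of 15 ss, and each library of 20 ss (points), with the mean as a line and the SD as a bar, after 49 libraries of 6 ss to 24 hpf had been normalized together. The S libraries of 15 ss lie between the plain libraries of both stages for *hbbe3* and *myl1*, and next to those of 20 ss for *szl*, *hspb1*, *stmn1a*, and *he1.1*.

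Tailbud and presomitic mesoderm genes fell as a group. Of 15 tested members 14 fell, with a median log2 fold change of -0.97, and the exception was *cyp26a1*, which did not pass. Their summed level was 1186 to 1397 CPM at 15 ss and 593 to 683 CPM at 20 ss. The largest fall was that of *szl*, sizzled, a secreted inhibitor of the proteases that cleave chordin. It was at 71.9, 70.4, 60.1, and 66.6 CPM at 15 ss and at 0 to 5.65 CPM at 20 ss (median 1.54), 31.7-fold lower (log2 fold change -4.99, SE 0.29, adjusted p = 1.84e-20). Without libraries 1, 7, and 8 of 20 ss its log2 fold change was -5.84. *wnt8a*, the Wnt ligand of the ventral and posterior mesoderm, went from 24.3 ± 6.54 to 4.87 ± 1.94 CPM, 4.96-fold lower. *cdx1a* and *cdx4*, caudal homeobox genes of the posterior body, were 4.75-fold and 1.84-fold lower. *vox*, *vent*, and *ved*, ventralizing homeobox repressors, were 2.65-fold, 4.73-fold, and 3.59-fold lower, with *vox* at 159, 165, 160, and 150 CPM at 15 ss and 49.3 to 83.9 CPM at 20 ss (median 57.1). *msgn1*, which moves tailbud cells into the presomitic mesoderm, fell from 281 ± 43.8 to 168 ± 17.3 CPM. None of these genes had a library of 20 ss as high as the lowest of 15 ss. *szl*, *wnt8a*, *cdx1a*, *vent*, and *ved* were among the 12 largest falls, which were chosen from genes without overlap. For them, and for *vox*, *cdx4*, and *msgn1*, which were chosen by their small p, the lack of overlap is therefore no separate result. From the S libraries to 20 ss, 3 of 14 members were lower at 20 ss, *vox*, *cdx4*, and *msgn1*, and the median was -0.30. *szl* was at 2.25 to 7.05 CPM in the S libraries of 15 ss and at 11.8 to 30.6 CPM in those of 10 ss, so that its plain libraries of 15 ss, at 58.2 to 69.9 CPM on the same scale, lay above the labelled stage before.

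Of 16 tested genes of the segmentation clock and the somite boundary, 5 fell, *her1*, *hes6*, *tbx6*, *mespab*, and *ripply1*. *ripply1*, a repressor that ends the presomitic state at the boundary, was at 67.9, 79.8, 59.0, and 56.0 CPM and fell to 21.2 to 36.2 CPM (median 32.2), 2.1-fold lower. *hes6*, a partner of the cycling repressors, fell from 173 ± 9.86 to 106 ± 25.8 CPM. Of 16 tested FGF ligands, receptors, and feedback genes 9 fell. *fgf8a* was at 48.9 ± 2.98 and 24.7 ± 4.98 CPM, the FGF-induced transcription factor *etv4* at 93.6 ± 3.06 and 52.4 ± 11.9 CPM, and *il17rd*, a membrane antagonist of FGF signalling, at 82.8 ± 4.75 and 50.4 ± 9.89 CPM. All 3 were lower in every library of 20 ss than in any of 15 ss, which is no separate result for genes chosen by their small p. The S libraries gave 1 of 15 clock genes and 1 of 16 FGF genes as lower at 20 ss, beside 1.71% of all genes. The medians were -0.16 and -0.20, and *il17rd* had a log2 fold change of 0.07 (adjusted p = 0.881). Of 12 tested Wnt targets 1 rose and 3 fell, and of 25 Notch effectors 2 rose and 2 fell. These shares were 8.33% and 25% for the Wnt targets and 8% each way for the Notch effectors. Over all genes they were 10.9% and 8.76%. With the S libraries 1 gene of either list was lower and none was higher.

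Of 16 tested Hox genes of the posterior paralog groups, 3 rose and 3 fell. That was 18.8% each way, beside 10.9% and 8.76% over all genes. The 3 that rose were *hoxc10a*, *hoxd12a*, and *hoxd13a*, and the 3 that fell were *hoxa9a*, *hoxa9b*, and *hoxd9a*. *hoxd13a* was at 0.666, 1.52, 1.06, and 0.368 CPM at 15 ss, from 12 counts in all, and at 3.86 to 15.6 CPM at 20 ss (median 8.84). *hoxd9a* went from 39.2 ± 6.06 to 14.9 ± 4.31 CPM. No gene of the list passed the edgeR test against the S libraries, where 2.32% of all genes were higher and 1.71% lower. There 3 had an unadjusted p under 0.05, with *hoxd13a* at 0.82 (adjusted p = 0.307) and *hoxd9a* at -0.72 (adjusted p = 0.0554).

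Of 22 tested notochord and floor plate genes 8 rose, matrix genes among them, and 4 fell. That was 36.4% and 18.2%, beside 10.9% and 8.76% over all genes. *col2a1a*, the type II collagen of the notochord sheath, was at 111, 120, 122, and 133 CPM at 15 ss and at 225 to 319 CPM at 20 ss (median 263), a 2.21-fold rise (adjusted p = 2.53e-15), and *col9a1b*, *col9a2*, and *col9a3* also rose. *cmn*, calymmin, a matrix protein of the zebrafish notochord sheath, went from 8.2 ± 3.18 to 46.9 ± 13.6 CPM. The 4 that fell were transcription factors of the embryonic midline, *foxa*, *foxa2*, *tbxta*, and *noto*, with *foxa2* at 36.1 ± 5.01 and 18.4 ± 5.03 CPM. Of these, *tbxta* and *noto* are also in the tailbud list and were counted among its falls. The factors *foxa1*, *foxa3*, and *twist2* and the matrix genes *epyc* and *loxl5b* of the same list were tested and did not pass. Of 16 fibrillar and basement membrane collagens 6 rose, all of them fibrillar chains. *col1a1b* was 6.83-fold higher, from 6.13 ± 1.66 to 41.2 ± 7.72 CPM, and *col1a2* 3.34-fold, from 19.6 ± 5.69 to 66.7 ± 5.56 CPM. *sparc*, a collagen-binding matrix protein, rose from 66.5 ± 14.6 to 205 ± 20.9 CPM. With S libraries for 15 ss, 3 of 22 notochord genes and 3 of 15 collagens were higher at 20 ss, *col1a1b* and *col1a2* among them (adjusted p = 0.0230 and 0.00972), and *col2a1a* had a log2 fold change of 0.14 (adjusted p = 0.421).

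In the nervous system, genes of differentiated neurons rose. Of 23 tested genes of neuron differentiation 19 rose, with a median log2 fold change of 1.32. Of 18 tested neurogenic transcription factors 1 rose, 5.56% and below the 10.9% over all genes. *stmn1a*, a regulator of microtubules, was at 66.6, 71.3, 93.0, and 76.2 CPM at 15 ss and at 124 to 181 CPM at 20 ss (median 168), a 2.09-fold rise (adjusted p = 1.06e-11). Its relative *stmn1b* rose 4.1-fold from 4.38 ± 0.574 CPM, and *elavl4*, an RNA-binding protein of postmitotic neurons, 5.05-fold from 2.39 ± 0.764 to 12.3 ± 4.35 CPM. The tubulins *tuba1a* and *tubb5* rose 1.37-fold and 1.54-fold, to 919 ± 59.2 and 194 ± 22.1 CPM. Of 23 neural progenitor genes 4 rose and 1 fell, 17.4% and 4.35% beside 10.9% and 8.76% over all genes. Those that rose were *sox3*, *her4.2*, the intermediate filament *gfap* of radial glia, from 38.7 ± 11.3 to 80.3 ± 11.7 CPM, and *fabp7a*, the fatty acid binding protein of the same cells, from 10.24 ± 1.48 to 35.1 ± 10.196 CPM. The SoxB1 gene *sox3* moved only from 154 ± 14.7 to 193 ± 16.1 CPM.

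Of 17 tested patterning genes of the midbrain and hindbrain, 9 fell and 3 rose. *otx2b*, which marks forebrain and midbrain, was at 27.3, 36.1, 40.6, and 39.8 CPM and fell to 7.84 to 23.8 CPM (median 18.1), and *irx7*, an Iroquois gene of the hindbrain, fell from 62.6 ± 12.0 to 30.5 ± 7.65 CPM. *mafbb* rose from 35.6 ± 7.16 to 80.0 ± 8.61 CPM, with *en1b* and *pax5* the others that rose. Of 17 eye and forebrain genes, *mab21l2* and *dlx2a* rose and *rx3* and *six3b* fell, the latter from 59.6 ± 7.49 to 27.8 ± 6.82 CPM. That was 11.8% each way, near the 10.9% and 8.76% over all genes, with a list median of 0.02. Against the S libraries 1 of 23 neuron genes was higher at 20 ss and the median was 0.43, *stmn1a* stood at 0.06 on the log2 scale (adjusted p = 0.815), while *sox3* had -0.23 (adjusted p = 0.0818). In that comparison 1 of 22 neural progenitor genes was higher, 1 of 17 eye and forebrain genes was lower, and none of 18 neurogenic factors passed the edgeR test, with 3 at an unadjusted p under 0.05. Over all genes 2.32% were higher and 1.71% lower there. There 1 of 17 midbrain and hindbrain genes was higher, *mafbb* with 0.39 (adjusted p = 0.0422), and 1 was lower.

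The surface epithelium changed in both directions. Of 30 tested periderm and basal keratinocyte genes 7 rose and 11 fell, 23.3% and 36.7% beside 10.9% and 8.76% over all genes. Their summed levels overlapped between stages. *krt18a.1*, a simple epithelial keratin, was at 2732, 2874, 2549, and 2663 CPM at 15 ss and at 1109 to 1326 CPM at 20 ss (median 1277), 2.16-fold lower (adjusted p = 3.88e-28). Its partner *krt8* fell 1.58-fold, from 2165 ± 69.3 to 1367 ± 43.7 CPM. In contrast *cyt1*, a type I keratin of the skin, rose 1.29-fold from 4569 ± 89.7 to 5915 ± 271 CPM, and *icn2*, a calcium-binding protein of the skin, 2.1-fold from 139 ± 15.5 to 293 ± 20.6 CPM. Of 8 tested hatching gland genes, *he1.1*, *he1.2*, *ctslb*, and *agr2* rose and *klf17* fell. The hatching enzymes *he1.1* and *he1.2*, which digest the chorion and are close copies, went from 251 ± 30.3 to 545 ± 46.4 and from 73.5 ± 7.69 to 199 ± 34.6 CPM. Against the S libraries 6 of the 30 epithelial genes were higher and 2 lower, with *krt18a.1* at -0.38 (adjusted p = 1.53e-06) and *krt8* at -0.08 (adjusted p = 0.475). *he1.1* was already at 503 ± 83.1 CPM in those libraries. *ctslb*, a cathepsin, was 1.21-fold higher at 20 ss than in the plain libraries, but against the S libraries, at 2387 ± 228 CPM, it was lower, with a log2 fold change of -0.33 (adjusted p = 4.41e-06).

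Some heart muscle genes came up from close to 0. Of 10 tested heart genes *myl7*, *cmlc1*, *tnnt2a*, and *tnni1b* rose and *nkx2.7* fell. That was 40% and 10%, beside 10.9% and 8.76% over all genes. *myl7*, a light chain of cardiac myosin, was at 0.666, 0.607, 0, and 0.184 CPM at 15 ss, from 5 counts in all, and at 5.79 to 14.2 CPM at 20 ss (median 10.21). *cmlc1* went from 9 counts, at 0.541 ± 0.625 CPM, to 376 counts at 19.6 ± 3.74 CPM, and the cardiac troponin T *tnnt2a* from 1.34 ± 0.798 to 15.09 ± 7.35 CPM. The fitted log2 fold change of *cmlc1* was 4.93, and 5.70 without library 4 of 15 ss. *myl7*, *cmlc1*, and *tnnt2a* entered the test only through their 20 ss counts, so only a rise could be called for them. That no library of 20 ss was as low as the highest of 15 ss is therefore no separate result for these 3 genes. The transcription factors *nkx2.5*, *gata5*, *gata6*, and *hand2* and the myosin heavy chain gene *myh7* were tested and did not pass. The summed level of the heart list overlapped between the stages, at 112 to 147 CPM at 15 ss and 125 to 200 CPM at 20 ss. Of 17 tested endothelial genes *fli1b*, *kdrl*, *cdh5*, *clec14a*, and *stab2* rose and *aplnrb* fell, 29.4% and 5.88% beside 10.9% and 8.76% over all genes. The vascular cadherin *cdh5* was at 1.32 ± 0.751 and 8.69 ± 5.41 CPM with overlapping libraries, and *clec14a*, a lectin of the vessel wall, at 2.06 ± 0.959 and 12.6 ± 2.75 CPM without overlap. Set against the S libraries, 1 of 9 heart genes was higher at 20 ss, *cmlc1*, by 1.00 on the log2 scale (adjusted p = 0.0102), and 1 of 14 endothelial genes, *stab2*.

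Of 13 tested neural crest genes, *crestin*, *foxd3*, *twist1a*, and *dlx2a* rose and *tfap2a*, *tfap2c*, *snai1b*, and *sox9b* fell. That was 30.8% each way, beside 10.9% and 8.76% over all genes. *crestin*, a marker of migrating crest in zebrafish, was at 104, 98.7, 91.9, and 104 CPM at 15 ss and at 148 to 216 CPM at 20 ss (median 157), a 1.66-fold rise (adjusted p = 4.35e-08). *twist1a*, a factor of crest-derived mesenchyme, went from 21.3 ± 3.95 to 44.3 ± 9.81 CPM, and *foxd3*, an early crest specifier, from 29.8 ± 6.40 to 51.8 ± 15.6 CPM with overlapping libraries. *snai1b*, which promotes cell detachment, fell from 113 ± 9.02 to 57.0 ± 15.9 CPM. The melanin synthesis gene *dct* had 1 count over the 4 libraries of 15 ss, in library 1, and 113 over the 8 of 20 ss, a ratio of 84.8 with a 95% counting interval of 14.9 to 3381, and the melanosome transporter *slc45a2*, from 3 counts to 78, was the other of 7 pigment genes that rose. That was 28.6% higher and 0% lower, beside 10.9% and 8.76% over all genes. *dct* and *slc45a2* entered the test only through their 20 ss counts, so only a rise could be called for them. No crest gene of 12 passed the edgeR test against the S libraries, where 4 had an unadjusted p under 0.05. Over all genes 2.32% were higher and 1.71% lower in that comparison, and no call among 12 genes is near these shares. There 1 of 6 pigment genes was higher at 20 ss. It was *pmela* (log2 fold change 1.60, adjusted p = 0.00309), which did not pass against the plain libraries. *dct* had 1.81 against the S libraries and did not pass (adjusted p = 0.0974).

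Among the genes that the study selected for its own questions, *sox9b* fell from 69.8 ± 9.87 to 48.9 ± 4.02 CPM (log2 fold change -0.52, SE 0.13, adjusted p = 0.00253). *zfhx3* rose from 8.50 ± 1.51 to 21.9 ± 6.46 CPM, and its relative *zfhx4* was at 35.8 ± 4.69 and 39.5 ± 6.88 CPM, a difference within the spread of the libraries (adjusted p = 0.638). *jun* and *six1b* did not pass either (adjusted p = 0.589 and 0.182). *sox9a* had 0 counts in all 4 libraries of 15 ss and in 3 of the 8 of 20 ss, and was not tested. With the S libraries none of the 5 tested passed the edgeR test, *sox9b* with a log2 fold change of -0.17 and *zfhx3* with 0.34 (adjusted p = 0.640 and 0.567), and none had an unadjusted p under 0.05.

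Of 26 tested genes of the yolk layer and the liver 21 rose and 3 fell, while their summed levels overlapped between the stages. *fgb*, the fibrinogen beta chain, was at 5.33, 3.04, 4.95, and 6.26 CPM at 15 ss and at 29.7 to 43.4 CPM at 20 ss (median 34.1), a 7.07-fold rise (adjusted p = 4.55e-14). *fga*, the alpha chain, was among the genes chosen for the size of their rise, at 1.09 ± 1.18 and 25.2 ± 6.70 CPM, with a log2 fold change of 4.24, or 5.42 without library 4 of 15 ss. *rbp4*, the retinol carrier of plasma, rose 3.02-fold from 44.4 ± 7.87 to 135 ± 10.7 CPM. Apolipoproteins that package yolk lipid rose less, *apoa2* 1.72-fold to 827 ± 53.2 CPM and *apoa1b* 1.24-fold to 4380 ± 178 CPM, and *apoeb* fell 1.35-fold from 4659 ± 92.9 to 3462 ± 105 CPM. Of the other genes that fell, *mttp* loads lipid onto apolipoprotein B and *a1cf* is an RNA-binding protein. At least 1 of them fell 2-fold or more, and the lowest log2 fold change in the list was -1.96. Against the S libraries 13 of 25 members were higher at 20 ss, with a median of 0.38 beside 0.54 for the plain libraries. There *fgb* had a log2 fold change of 1.83, *rbp4* of 0.97, *apoa2* of 0.49, and *apoa1b* of 0.38, the last above its value of 0.31 against the plain libraries, and *apoeb* had -0.06 (adjusted p = 0.470).

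Genes that build ribosomes fell while ribosomal proteins rose. Of 50 tested nucleolar genes of ribosome biogenesis 29 fell and 1 rose, with a median log2 fold change of -0.39. *ncl*, nucleolin, was at 1398, 1544, 1395, and 1541 CPM at 15 ss and at 914 to 1000 CPM at 20 ss (median 958), 1.54-fold lower (adjusted p = 1.84e-16). *dkc1*, which modifies ribosomal RNA, was 1.76-fold lower, the processome subunit *wdr43* 1.74-fold, the nucleolar GTPase *gnl3* 1.68-fold, and *npm1a*, nucleophosmin, 1.42-fold. Of 79 tested genes caught by the name pattern of ribosomal proteins 77 rose, by little, with a median of 0.27 and summed levels of 220782 to 236703 CPM at 15 ss and 267424 to 290959 CPM at 20 ss. *rplp0*, of the ribosomal stalk, rose 1.29-fold from 5363 ± 197 to 6904 ± 221 CPM. The pair that fell was named after its values had been seen. It was *rps27l*, a paralog of a ribosomal protein, from 151 ± 14.3 to 91.2 ± 27.4 CPM, and *rps6kal*, which encodes a kinase and no ribosomal protein, from 30.0 ± 3.32 to 14.6 ± 5.38 CPM. With library totals in place of TMM, 76 of the 79 rose and 2 fell, and 36 of the 50 nucleolar genes fell. Against the S libraries 9 of 50 nucleolar genes were lower, with a median of -0.18. There 3 of the 79 ribosomal protein genes were higher and 1 lower, with a median of 0.05. The lower one was *rps27l*, with a log2 fold change of -1.06 (adjusted p = 2.61e-05), while *rps6kal* had 0.12 (adjusted p = 0.902).

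Of 49 tested splicing factors 23 fell and 4 rose. The paralogs *srsf5a* and *srsf5b* were 2.04-fold and 1.95-fold lower, from 236 ± 21.6 and 162 ± 4.16 CPM, and *srsf6b*, another member of the same SR family, was 2.08-fold higher, from 43.0 ± 8.39 to 89.1 ± 17.9 CPM. From the S libraries to 20 ss, 7 of 48 splicing factors were lower and 2 higher, and the median went from -0.22 to -0.07. *srsf5a*, *srsf5b*, and *srsf6b* were among them, in the same directions (log2 fold changes -0.73, -0.77, and 0.55). Of 88 tested nuclear genes of oxidative phosphorylation 46 rose, with a median of 0.27, among them *ndufb3* of complex I, from 91.6 ± 3.89 to 156 ± 21.1 CPM, and the ATP synthase subunit *atp5mc3b*, from 471 ± 20.2 to 728 ± 42.4 CPM. Against the S libraries 1 of 88 was higher and 1 lower. Of 23 heat and stress genes 4 rose and 5 fell, 17.4% and 21.7% beside 10.9% and 8.76% over all genes. Among those that fell were the small heat shock protein *hspb1* and the cyclin gene *ccng1*. *hspb1* was at 1776, 1819, 1462, and 1652 CPM and fell to 339 to 442 CPM (median 390), 4.31-fold lower (adjusted p = 5.11e-35), with 456 ± 71.2 CPM in the S libraries of 15 ss and 1089 ± 51.3 CPM in those of 10 ss. *ccng1* fell 1.38-fold from 688 ± 18.4 to 497 ± 35.9 CPM. With the S libraries for 15 ss the balance of the list was the other way, 6 of 21 higher at 20 ss and 2 lower.

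Few proliferation genes passed the test. None of 39 tested mitosis genes passed the edgeR test, 8 had an unadjusted p under 0.05, 4 in each direction, and DESeq2 called 2 higher and 1 lower. Of 40 DNA replication genes 5 rose and 2 fell, and of 35 proteasome genes 2 rose and 3 fell, all at or below the background share of 19.7% called in either direction. No lens gene of 11 and no endoderm or pancreas gene of 11 passed, with 2 and 1 at an unadjusted p under 0.05 and none called by DESeq2. No gene of these 5 lists passed the edgeR test against the S libraries, where 2 mitosis, 3 replication, 2 proteasome, 2 lens, and 1 endoderm genes had an unadjusted p under 0.05.

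Of the 12 genes with the largest rise under the naming rule, *trpm1b*, *aimp1b*, and *mafaa* were in none of the gene lists. *trpm1b*, a channel of the melastatin family, was at 0, 0.607, 0.353, and 0.552 CPM, from 6 counts, and rose to 10.6 to 36.7 CPM (median 22.5), while *aimp1b* went from 2.75 ± 1.90 to 27.1 ± 7.10 CPM and the transcription factor gene *mafaa* from 2.27 ± 1.75 to 22.5 ± 8.01 CPM. Of the 12 with the largest fall, *fzd8b*, a Wnt receptor, went from 26.5 ± 7.74 to 3.15 ± 2.51 CPM, *rab34b*, a small GTPase, from 31.7 ± 10.1 to 9.43 ± 5.04 CPM, *pfkfb1*, a switch of glycolysis, from 30.6 ± 7.80 to 9.93 ± 3.45 CPM, and *ifi45* from 28.7 ± 6.14 to 9.85 ± 2.98 CPM. *hp*, haptoglobin, the plasma protein that binds free hemoglobin, was at 2525, 2648, 2981, and 2743 CPM at 15 ss. It fell to 810.2 to 917 CPM (median 845), 3.22-fold lower. A lack of overlap between the stages was a condition for both groups of 12 genes. Over the S libraries the log2 fold change was -0.44 for *hp* (adjusted p = 9.44e-07) and 0.93 for *trpm1b* (adjusted p = 0.0466).

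**Figure D5:**
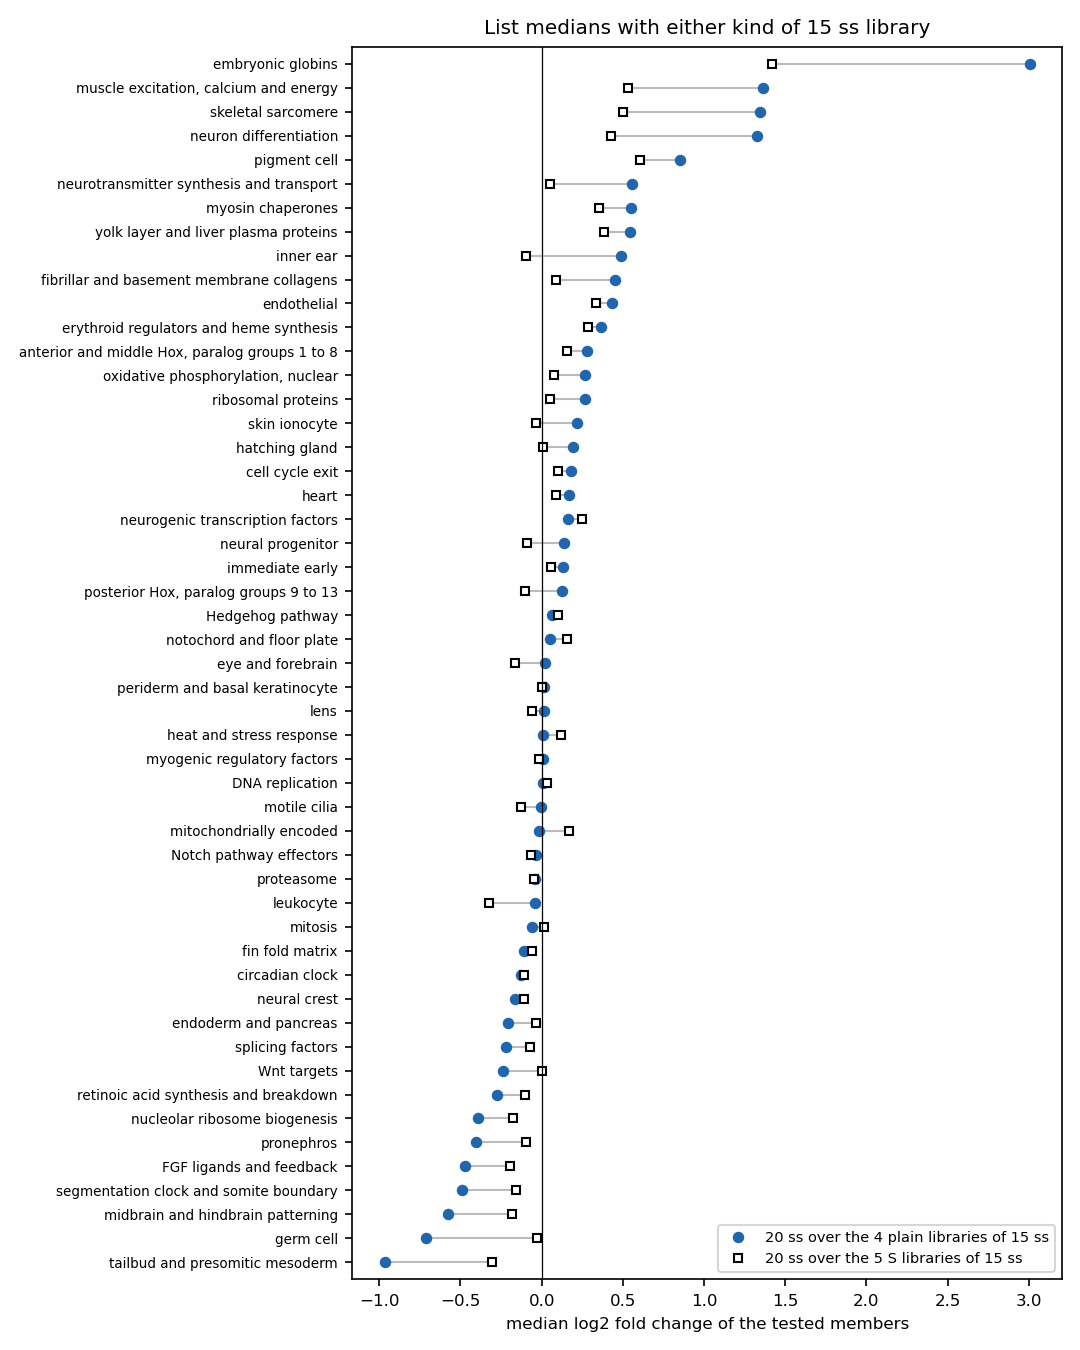
Median log2 fold change of the tested members of each gene list, 20 ss over the 4 plain libraries of 15 ss (blue points) and over the 5 S libraries of 15 ss (open squares), joined by a line. The embryonic globins go from 3.01 to 1.42, the skeletal sarcomere from 1.34 to 0.50, and the tailbud genes from -0.97 to -0.30.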

How the data were processed

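Libraries were grouped by their sample titles. The authors trimmed reads with fastp 0.21.0, aligned them with BWA 0.7.17-r1188 to Ensembl GRCz11 transcripts, and ran Salmon. The deposited values are estimated counts for each symbol, which the authors did not normalize. Of the values in the table, 2 were not whole and were rounded. Read counts without molecular identifiers carry counting error only as a lower limit on their error, and the 12 libraries held 1930237 to 5336861 counts. The deposited counts do not state strand use, so overlapping genes cannot be told apart.

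Genes passing filterByExpr (11649, with 99.3% of counts) were normalized by TMM and tested in R 4.3.3 with the quasi-likelihood test of edgeR 4.0.16 (limma 3.58.1), 20 ss against 15 ss without covariates, and p-values were adjusted by Benjamini-Hochberg over the 11649 genes. SE is the log2 fold change divided by the square root of F. Plots were made with matplotlib 3.10.9 under Python 3.11.15. No pair of libraries agreed within sampling noise (chi-square per degree of freedom 3.74 to 4.95 between replicates). 

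Named genes were the 12 with the largest rise and fall (adjusted p under 0.05, no overlap, a mean of at least 20 CPM in the higher group, no clone name), in each of 52 gene lists up to 6 members with the smallest p and 3 with the highest level, the genes the study selected, and the tissue markers. Genes outside the rule are said to be so or are named without values. Some genes, such as *klf17*, *dlx2a*, *fgf8a*, and *hes6*, are in several lists and are counted in each. The libraries, lists, and rule were chosen with earlier results of these data known. Alternatives were DESeq2 1.42.0, other size factors, filters, and depth, other sets of libraries including the S libraries of 15 ss, a replicate block, and each library left out. No sequence or coordinate was used, and mouse samples were not analysed here.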

Additional observations from a re-analysis of the deposited data

Results flagged for a closer look

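In each group, a library was singled out where its gap to the nearest other library, on log2(CPM + 1), was large for the range of the group. This was tested in 234 groups of 4 or 8 libraries over the genes printed here and singled out 11, and chance gives about 1 in 20. Library 3 of 15 ss was the low one for *wnt8a* (3.95, the others 4.83 to 4.84), *cmn* (2.18, the others 3.29 to 3.50), *stmn1b* (2.18, the others 2.47 to 2.53), *rps6kal* (4.71, the others 5.01 to 5.06), and *cyt1* (12.1, the others 12.17 to 12.17). Library 4 of 15 ss was the high one for *mpx* (0.244) and library 1 for *dct* (0.415), where the other 3 libraries were at 0 and the value rests on 1 count. At 20 ss, library 6 was low for *acta1a* (9.20, the others 9.35 to 9.47) and library 4 for *npm1a* (9.84, the others 10.0 to 10.1), while library 1 was high for *ccng1* (9.18, the others 8.84 to 8.97) and library 3 for *hp* (9.84, the others 9.66 to 9.75). The cause was not tested for any of them.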

How the results depend on the processing

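Of all alternatives, other libraries moved the counts most. With the 5 S libraries of 15 ss in place of the plain ones, 255 genes were higher and 188 lower at 20 ss, 60 and 32 at 2-fold or more. Of the 113 genes that passed and are printed with a level or fold in the Results, 3 were not tested there, 54 kept their call, 52 lost it, and 4 changed sign. These were *il17rd* (0.072), *sox3* (-0.23), *ctslb* (-0.33), and *rps6kal* (0.12). The count leaves out genes named without values. Among those, *hoxd12a* (-0.33), *her4.2* (-0.12), *pax5* (-0.30), *mab21l2* (-0.04), and *rx3* (0.11) also had the opposite sign and did not pass. In 1 fit of all libraries of sets 1 and 2 with terms for stage, kind, and set, 624 were higher and 270 lower, 279 and 69 at 2-fold or more, and *smyd1a* (0.28), *ctslb* (-0.034), *srsf5a* (0.22), and *ccng1* (0.19) changed sign. With a group for each stage and kind in the 81 libraries of set 1, 293 were 2-fold lower. The cause was not tested. DESeq2, other size factors and filters, thinning, and leaving out libraries 1, 7, and 8 of 20 ss (an alternative chosen after seeing the data) changed no sign among the genes printed with a level or fold. Without each library in turn, the genes higher numbered 1037 to 1229 and those lower 798 to 1020, with 469 to 505 and 169 to 205 at 2-fold or more. Same-numbered libraries correlated at 0.010 to 0.025 in their deviations, beside 0.011 to 0.032 for the best library of another number. Whether replicate numbers pair the samples was not settled by these values. With the replicate block over replicates 1 to 4, 1841 genes were called (985 higher, 856 lower), and 1818 without it. Depth limits genes near 0 at 15 ss, whose folds rest on few counts. Such genes entered the test only through their 20 ss counts, so only a rise could be called for them.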

Other observations

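A pair of genes with clone names lay outside the naming rule and was chosen after its values had been seen. *si:ch1073-190k2.1* was at 21.0, 13.7, 37.8, and 22.3 CPM in the plain libraries of 15 ss and at 0 in 7 of the 8 libraries of 20 ss, with 0.531 CPM in the other. With 49 libraries normalized together it was at 0 in every S library of 6 ss and of 15 ss, at 0 to 22.0 CPM in the plain libraries of 6 ss, and at 8.85 to 15.0 CPM in those of 24 hpf, so that its level did not follow the order of the stages. *si:ch211-152c2.3* was at 489 ± 57.8 CPM in the plain libraries of 15 ss (SD, n = 4) and 67.4 ± 7.82 CPM at 20 ss (n = 8), 7.24-fold lower. On the common scale it stood at 1498 ± 135 CPM in the plain libraries of 6 ss, 379 ± 36.9 CPM in the S libraries of 10 ss, 473 ± 56.2 CPM in the plain and 92.1 ± 19.0 CPM in the S libraries of 15 ss, and 59.4 ± 5.26 CPM at 24 hpf.

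Over the same libraries *hp* went from 4096 ± 418 CPM in the plain libraries of 6 ss to 166 ± 14.8 CPM at 24 hpf, and *hbbe3* went from 2.29 ± 1.35 to 1357 ± 93.6 CPM. *zfhx4* stayed between group means of 30.7 and 42.6 CPM in all 7 groups of 6 ss to 24 hpf.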
